A study of Mus musculus with 8 samples.

Results

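The genes described here handle fatty acids in the fat of mouse skin: 7 act in uptake, 7 in lipolysis, 21 in oxidation, and 2 encode uncoupling proteins. They were chosen by gene symbol, and all 37 were found among the 34790 gene names on the array. Each of the 37 was well above background on all 8 arrays, so no filter on low values removed a member.

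The samples were labelled as adipose cells of female C57 BL/6 mice, an inbred strain, and the series' design text describes the material as tissue outside the follicles that includes fat and dermis. Hair cycles were first synchronised by an earlier wax stripping, and the skin was then either shaved only (the control) or plucked again with wax. The groups used are the shaved control at an age of 10 weeks, 12 h, 1 d, 2 d and 4 d after plucking at 10 weeks, 6 d and 10 d at 11 weeks, and 50 d at 17 weeks. All groups therefore share the earlier stripping, no group carries a genetic change, and age cannot be told apart from time at 50 d. The treatment protocol states a younger age than the sample labels, and the labels do not say how many mice gave each sample. Each group has 1 array, so no difference below carries a test across mice, and all 7 comparisons share the single control array.

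Fat cells take up fatty acids that lipoprotein lipase frees from circulating lipoproteins, store them as triglyceride, and release them again by a chain of lipases that acts on the lipid droplet. Released or imported fatty acids are coupled to coenzyme A, carried into mitochondria by the carnitine shuttle, and shortened in repeated turns of dehydrogenation, hydration, a second dehydrogenation and thiolysis. Peroxisomes hold a parallel set of enzymes, and the nuclear receptor PPAR-alpha switches on many genes of both. In skin, the fat layer under the dermis thickens and thins with the hair cycle.

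Of the members, 12 are measured by more than 1 probe. The bases that were read are shown for Ucp3 and Ppara, whose probes disagree at 50 d in direction or size. Positions are mm9 per the file headers, and each line gives the first 30 of a probe's 60 bases, 5′ to 3′.
Ucp3, brighter probe, chr7:107630399-107630458, plus strand: aagaaatgccattgtcaactgtgctgagat
Ucp3, dimmer probe, chr7:107634291-107634350, plus strand: caatgttttaggagagattctgtccagaga
Ppara, brightest probe, chr15:85632534-85632593, plus strand: aaatgctcctctaggcccctcctttggcag
Ppara, another probe, chr15:85632110-85632169, plus strand: ctttgaaaacctacaagtcaaggtgtggcc
Ppara, the remaining probe, chr15:85637193-85637252, plus strand: cctgtaagctgatgaatgtaaagagttaat
Cpt1a and Cpt1b, the liver and muscle forms of the entry enzyme of the carnitine shuttle, differed in opposite directions at 50 d, and the longest run of bases shared by any pair of their probes was 7.
Cpt1a, brighter probe, chr19:3385374-3385433, plus strand: tcttaggactacttgctaacctctgttact
Cpt1b, brighter probe, chr15:89246836-89246895, minus strand: ttggagagcgctgtccaacctctcatgtgc
The related carriers Fabp4 and Fabp5 differed in direction on the 4 d, 6 d and 10 d arrays. At 50 d both were above the control, by 0.15 and 0.21. Their probes shared no run longer than 6 bases.
Fabp4, chr3:10204452-10204511, minus strand: aagaggcctggatggaaatttgcatcaaac
Fabp5, chr3:10016185-10016244, plus strand: gtcaaatgcaacaaacagcttcacttcttt

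Promoters were searched because many members were high and low on the same arrays. Windows of 250 bases before to 50 after a gene's start, from RefSeq on GRCm38.p6, were held for 30 of the 37 members, 36 windows in all. They were searched on both strands for the nuclear receptor half-site AGGTCA, which reads TGACCT on the other strand, and for this half-site followed by itself in the same direction with any 1 base between, the form PPAR proteins bind; every repeat also counts as a half-site. The half-site was in 9 of the 36 windows, those of Abhd5, Acadm, Acadvl, Aqp7, Cd36, Cpt1a, Echs1 and Ucp3, against 16.26% of all 32851 windows. By gene this was 8 of 30, because Aqp7 has overlapping windows that share a half-site. The repeat was in 0 of the 36 and in 0.0396% of all windows. A match is a description of these letters only. The 250 bases before the start are shown for Acadm and Cpt1a, which stood at opposite ends at 50 d, and for Aqp7, which has the half-site at 2 places in this window, with the half-sites in capitals.
Acadm, chr3:153944644-153944893, minus strand: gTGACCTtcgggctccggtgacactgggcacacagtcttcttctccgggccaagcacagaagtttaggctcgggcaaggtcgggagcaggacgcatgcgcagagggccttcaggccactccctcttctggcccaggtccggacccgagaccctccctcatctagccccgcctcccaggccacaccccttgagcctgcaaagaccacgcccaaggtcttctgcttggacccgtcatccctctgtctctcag
Cpt1a, chr19:3323051-3323300, plus strand: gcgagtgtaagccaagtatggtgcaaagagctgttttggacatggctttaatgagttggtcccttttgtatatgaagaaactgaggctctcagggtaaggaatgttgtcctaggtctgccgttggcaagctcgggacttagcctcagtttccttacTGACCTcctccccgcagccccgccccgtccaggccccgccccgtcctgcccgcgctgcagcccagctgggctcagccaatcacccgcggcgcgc
Aqp7, chr4:41047963-41048212, minus strand: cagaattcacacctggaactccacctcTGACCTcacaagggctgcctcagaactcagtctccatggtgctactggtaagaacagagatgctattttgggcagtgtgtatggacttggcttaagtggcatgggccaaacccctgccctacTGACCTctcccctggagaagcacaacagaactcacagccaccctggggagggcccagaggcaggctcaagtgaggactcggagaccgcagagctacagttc

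A level is the log2 signal of a gene's brightest probe minus the 75th percentile of its array, and a difference is the level at a time minus that in the shaved control. Levels of different genes come from different probes and are not compared. The technical error, as a median SD, was 0.056 to 0.092 for repeated spots of 1 probe and 0.153 to 0.178 for the differences read by several probes of 1 gene; the spread between mice is unknown. The share of spots well above background ran from 72.9% to 81.15% over the arrays, with no saturated spot. Per its file header, the 10 d array had a spike-in slope out of range. The headers also put the net signal of the negative controls out of range on every array except the 4 d array.

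Uptake, lipolysis and oxidation members stood mostly above the control on the 1 d and 2 d arrays, mostly below it on the 4 d, 6 d and 10 d arrays, and mostly above it again on the 50 d array. The median difference of the 7 uptake members was 0.21 and 0.46 on the 1 d and 2 d arrays, -0.50, -0.54 and -0.40 on the 4 d, 6 d and 10 d arrays, and 0.15 on the 50 d array, which turned to -0.12 with quantile normalization. For the 7 lipolysis members it was 0.34 and 0.47, then -0.46, -0.82 and -0.74, then 0.18. For the 21 oxidation members it was 0.21 and 0.32, then -0.41, -0.36 and -0.25, then 0.54. Lipolysis had the lowest of these medians at 6 d and 10 d and oxidation the highest at 50 d, while the median of all genes stayed between -0.12 and 0.05 at every time. On the 12 h array the medians were -0.003 for uptake, -0.34 for lipolysis and -0.03 for oxidation. In bulk samples such as these, fewer cells of a type and less RNA per cell cannot be told apart.

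**Figure D1:**
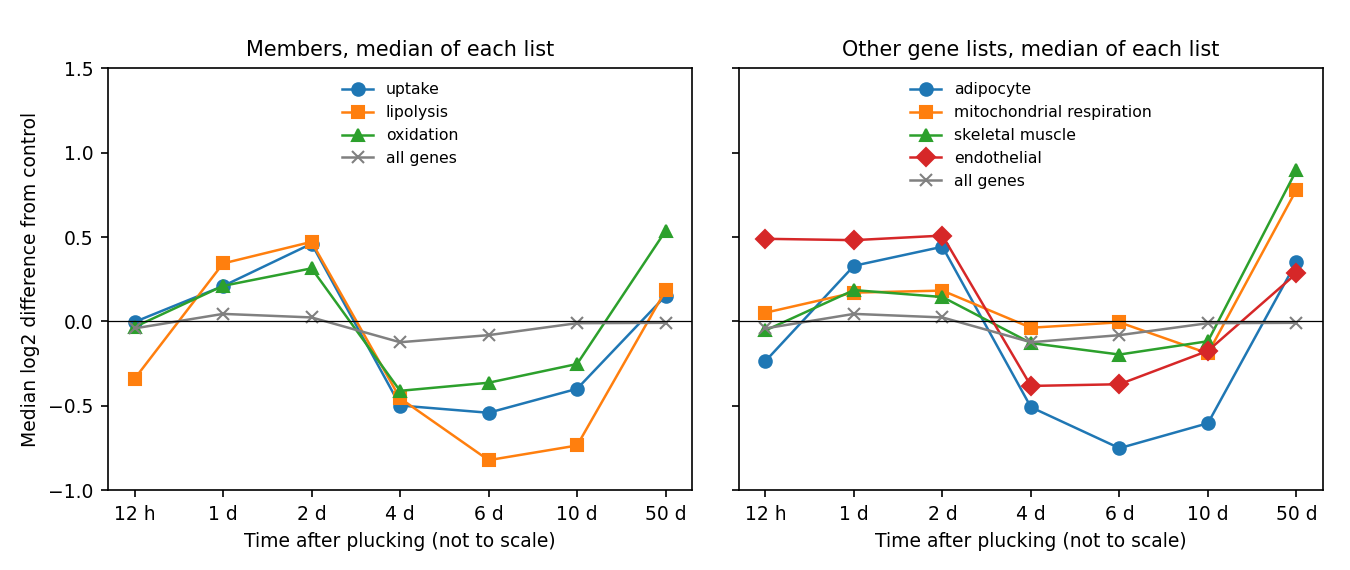
Median log2 difference from the shaved control (vertical axis) at each time after plucking (horizontal axis, not to scale), for the uptake, lipolysis and oxidation members and all genes (left) and for other gene lists (right); each point is the median over a list's genes on 1 array. All 3 member lists are above 0 at 2 d and below 0 from 4 d to 10 d, and oxidation reaches 0.54 at 50 d.

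Few single members were 2-fold from the control, 0 to 3 of the 37 in each direction at each time, and counts this small are not read against the shares of all genes given beside them. Of the 37 members, 0 were at least 2-fold higher at 12 h, against 3.92% of all genes measured, and 1 was at least 2-fold lower, Adrb3, against 3.31%. At 1 d the counts were 0 and 0, against 2.78% and 3.1%. At 2 d Abhd5 alone was higher, against 2.65%, and 0 were lower, against 3.48%. At 4 d Fabp5 was higher and Aqp7 lower, against 5.96% and 6.51%. The 6 d array had Fabp5 higher, against 4.25%, and Slc27a1, Lipe and Ehhadh lower, against 2.09%. At 10 d the counts were 0 and 0, against 4% and 2.12%. At 50 d G0s2 and Acadm were higher, against 2.73%, and Cpt1a, Ucp2 and Ucp3 lower, against 4.39%.

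**Figure D2:**
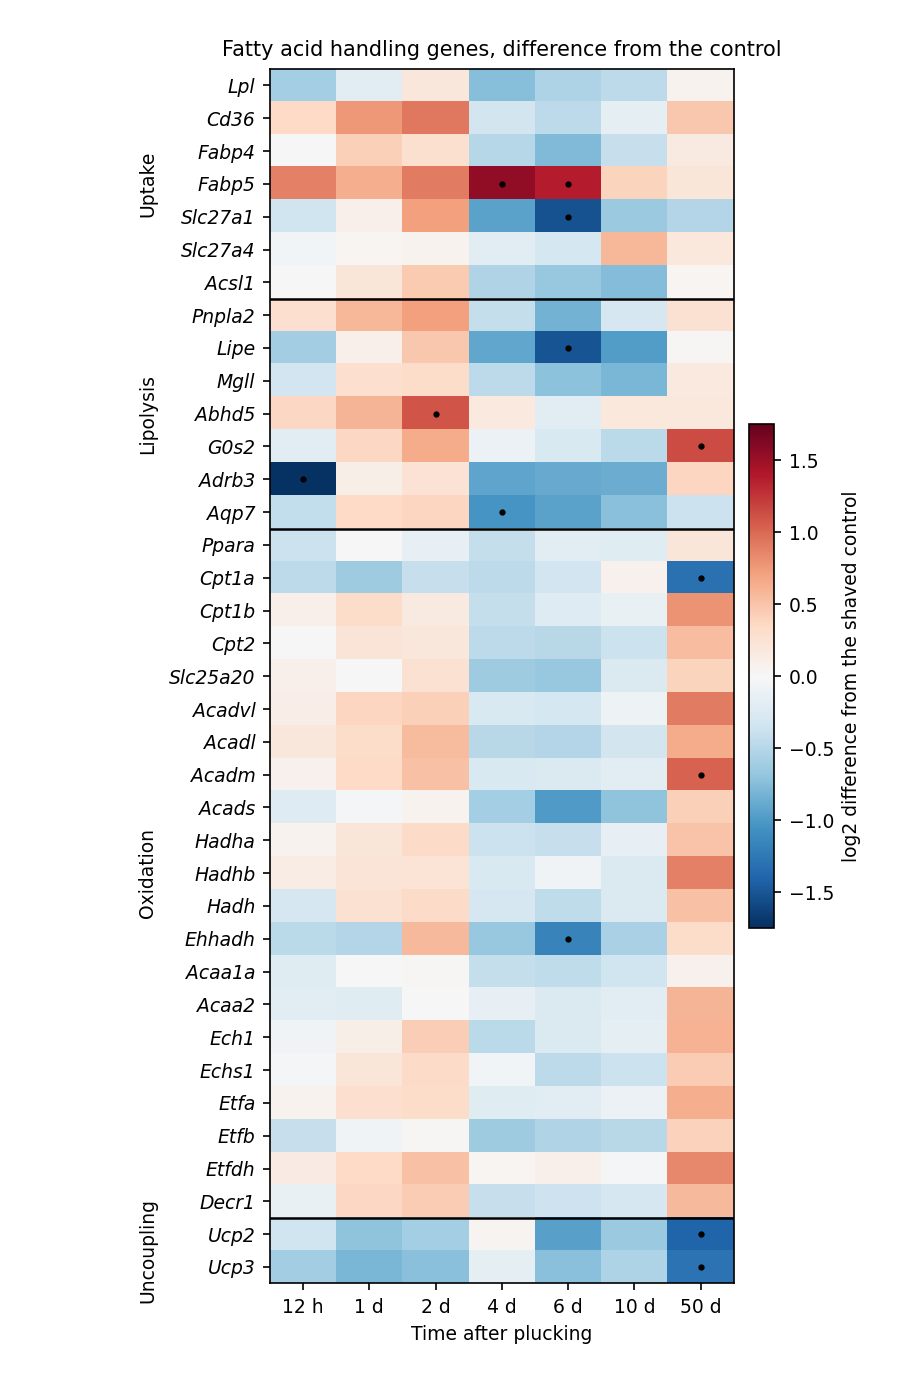
Log2 difference from the shaved control (colour, red above and blue below) of each of the 37 members (rows, by role) at each time after plucking (columns); a dot marks a difference of at least 2-fold. Blue dominates from 4 d to 10 d, and at 50 d 20 of the 21 oxidation members are red while Cpt1a, Ucp2 and Ucp3 are blue with a dot.

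The 12 h, 1 d and 2 d arrays are called early and the 4 d, 6 d and 10 d arrays later, and values are always given in that order of time. Setting one window against the other uses no control array. All 3 later arrays lay below all 3 early ones for 26 of the 37 members, against 13.7% of 27652 genes measured, and lay above them for 0 members, against 5.04%. By role these were 4 of 7 uptake members, 5 of 7 lipolysis members, 17 of 21 oxidation members and 0 of 2 uncoupling proteins. The arrays of a window are different times and not replicates, so this is a count and not a test. The gap between the windows was small for many of the 26: only 9 kept a gap of at least 0.3, against 2.27% of all genes. The windows meet between 2 d and 4 d, where 34 of 37 members were lower at 4 d, against 64.2% of all genes measured. The median difference between these arrays was -0.72 for the members and -0.15 for all genes.

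**Figure D3:**
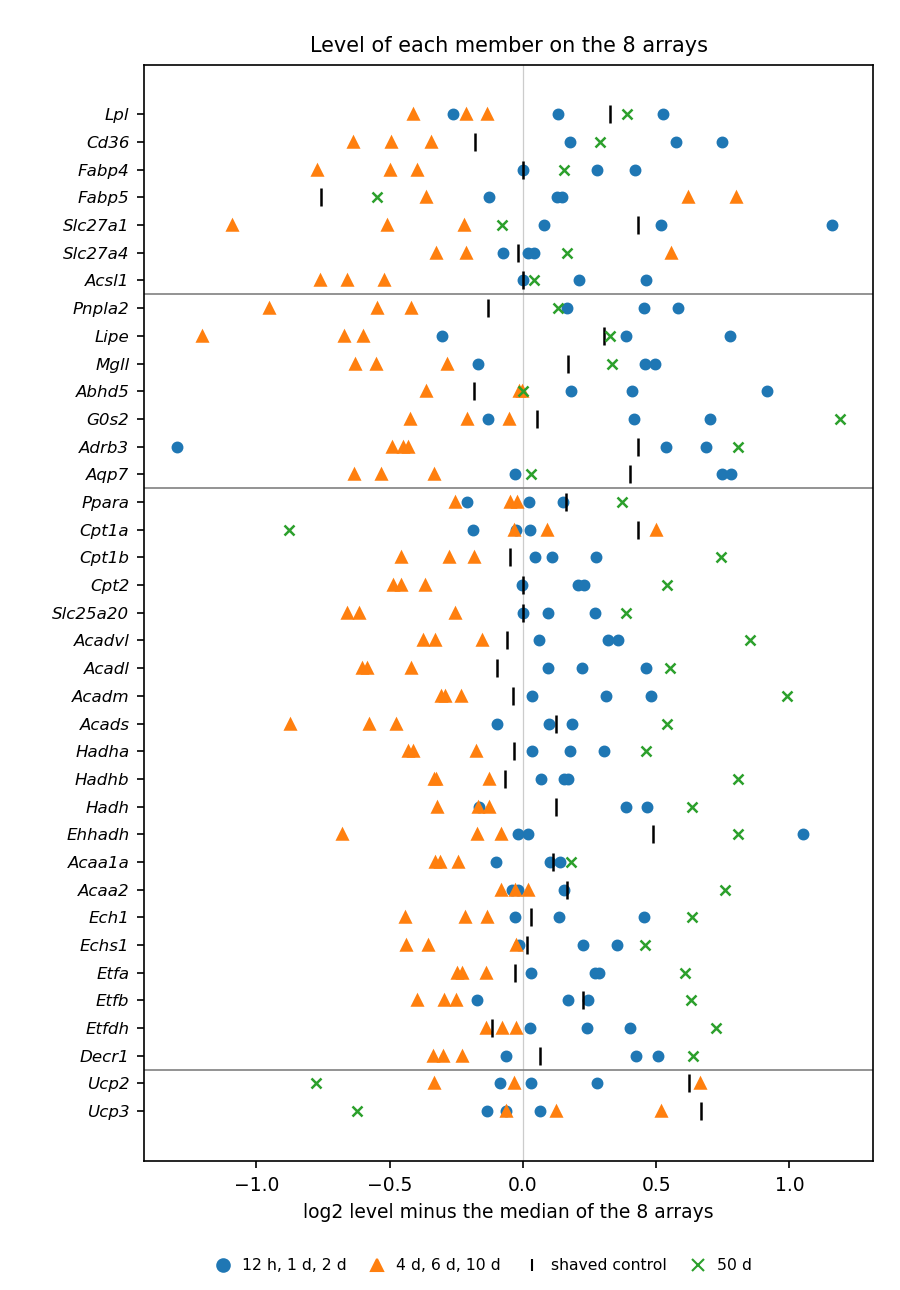
Log2 level of each member on the 8 arrays minus its own median over them (horizontal axis); circles are the early arrays, triangles the later ones, the bar the shaved control and the cross the 50 d array. For 26 members every triangle lies left of every circle, and the 50 d cross lies farthest right for 19 of the 21 oxidation members. The place of the 50 d array was not counted over all genes.

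Among the uptake members, Cd36, a fatty acid receptor of the cell surface, stood at 3.87 in the control, at 4.22, 4.62 and 4.79 on the early arrays, at 3.55, 3.41 and 3.70 on the later ones and at 4.34 on the 50 d array. Its later arrays lay below both the control and the early arrays. Slc27a1, a fatty acid transport protein, stood at 3.79 in the control, at 3.43, 3.87 and 4.51 on the early arrays, at 2.84, 2.26 and 3.13 on the later ones and at 3.28 on the 50 d array. It had the widest range of the 37 members, 2.25, and at 6 d it was 2.88-fold below the control. Acsl1, which couples fatty acids to coenzyme A, stood at 5.99 in the control, at 5.99, 6.20 and 6.45 on the early arrays, at 5.47, 5.33 and 5.23 on the later ones and at 6.03 on the 50 d array, low on the 3 later arrays only. The dimmer of its 2 probes differed more at 6 d, with -1.11 against -0.66.

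Fabp5, a fatty acid carrier known from epidermis as well as fat, ran the other way. It stood at 4.47 in the control, at 5.35, 5.10 and 5.37 on the early arrays, at 6.03, 5.85 and 4.86 on the later ones and at 4.68 on the 50 d array. The control was its lowest array, and it was 2.94-fold higher at 4 d and 2.60-fold higher at 6 d. Fabp4, the carrier of fat cells, had its largest difference at 6 d, -0.77, and its highest array at 1 d. The keratinocyte list was above the control on the same arrays, with a median of 2.32 at 4 d and 1.13 at 6 d, where 13 and 12 of its 14 genes stood higher. Its summed level was 42.7 in the control, 253.5 at 4 d and 117.2 at 6 d. It was highest at 1 d, 305.6, where Fabp5 differed by 0.63, and its part in the Fabp5 values was not tested. Lpl, lipoprotein lipase itself, had its largest difference at 4 d, -0.74, and its early and later arrays overlapped. Slc27a4, another transport protein, differed most at 10 d, by 0.58, and lay within 0.31 of the control at the other times.

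The lipolysis members include the lipases that act in turn. Pnpla2, the triglyceride lipase that starts lipolysis, stood at 6.13 in the control, at 6.43, 6.72 and 6.84 on the early arrays, at 5.71, 5.31 and 5.84 on the later ones and at 6.39 on the 50 d array. Lipe, hormone-sensitive lipase, stood at 0.98 in the control, at 0.37, 1.06 and 1.45 on the early arrays, at 0.07, -0.53 and 0.00 on the later ones and at 1.00 on the 50 d array. Both were lowest at 6 d, where Lipe was 2.85-fold below the control, and both were back at or above the control at 50 d. Mgll, which completes the breakdown, differed most at 10 d, -0.80. Of its 4 probes, 3 were below the control on all the later arrays, and the dimmest was not; at 12 h that probe gave 0.95 against -0.34 on the brightest.

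Abhd5, the coactivator of Pnpla2, was 2.14-fold above the control at 2 d, and its other probes gave 0.62 and 0.93 there. G0s2, an inhibitor of Pnpla2, stood at 1.79 in the control, at 1.61, 2.16 and 2.44 on the early arrays, at 1.69, 1.53 and 1.32 on the later ones and at 2.93 on the 50 d array. The inhibitor was thus highest at 50 d, 2.20-fold above the control, while Pnpla2 and Abhd5 were highest at 2 d. Aqp7, the channel through which glycerol leaves the fat cell, differed most at 4 d, -1.04, and lay below every early array on all 3 later ones. At 50 d it was still below the control, at -0.37.

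Adrb3, the adrenergic receptor through which catecholamines start lipolysis in fat cells, stood at 4.14 in the control, at 2.41, 4.25 and 4.39 on the early arrays, at 3.22, 3.26 and 3.28 on the later ones and at 4.52 on the 50 d array. The 12 h array was 3.31-fold below the control, apart from all others, and the second probe gave -1.61 there. By 1 d the difference was 0.11. Of the other adrenergic receptors, Adrb1 was at -1.19 at 12 h and -1.39 at 4 d. The adipocyte list as a whole had a median of -0.24 at 12 h, with 10 of 15 genes below the control, against 16081 of 29297 among all genes measured.

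On the 4 d and 6 d arrays 20 of the 21 oxidation members were below the control, all but Etfdh, and on the 10 d array all but Cpt1a. At 50 d 20 were above it, all but Cpt1a. These counts rest on the brightest probes. At 10 d the second probes of Cpt1a and Cpt1b had the other sign, -0.263 and 0.040. At 6 d the other probes of Ppara were above the control, at 0.054 and 0.225. Among all genes measured, 17594 of 28885 were below the control at 4 d and 17577 of 29342 at 6 d. At 10 d 14607 of 28491 were below it, and at 50 d 14000 of 28401 were above it. In array order, 19 of the 21 oxidation members were highest at 50 d; 11 were lowest at 6 d and 8 at 4 d. The same order was not counted over all genes. Each of the respiration genes described below was also highest at 50 d. Values are given below by step.

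Entry into mitochondria runs through Cpt1a or Cpt1b, the carrier Slc25a20 and Cpt2. Cpt1a stood at 2.96 in the control, at 2.51, 2.35 and 2.56 on the early arrays, at 2.50, 2.63 and 3.03 on the later ones and at 1.65 on the 50 d array. Cpt1b stood at 2.83 in the control, at 2.93, 3.16 and 2.99 on the early arrays, at 2.42, 2.61 and 2.70 on the later ones and at 3.62 on the 50 d array. At 50 d the liver form was thus at its lowest, 2.48-fold below the control, and the muscle form at its highest, 1.73-fold above it. The second probes gave -0.90 for Cpt1a and 0.84 for Cpt1b. Cpt2 had its largest difference at 50 d, 0.54, and Slc25a20 at 6 d, -0.66; both were low on all 3 later arrays.

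The first dehydrogenation is carried out by acyl-CoA dehydrogenases of different chain length. Acadvl, for very long chains, stood at 5.20 in the control, at 5.32, 5.58 and 5.62 on the early arrays, at 4.93, 4.89 and 5.10 on the later ones and at 6.11 on the 50 d array. Acadl, for long chains, stood at 3.22 in the control, at 3.41, 3.54 and 3.78 on the early arrays, at 2.73, 2.71 and 2.89 on the later ones and at 3.87 on the 50 d array. Both were lowest on the later arrays and highest at 50 d. Acadm, for medium chains, stood at 4.66 in the control, at 4.73, 5.00 and 5.17 on the early arrays, at 4.39, 4.40 and 4.46 on the later ones and at 5.69 on the 50 d array, and was 2.04-fold above the control at 50 d. Acads, for short chains, stood at 0.47 in the control, at 0.25, 0.44 and 0.53 on the early arrays, at -0.13, -0.53 and -0.23 on the later ones and at 0.88 on the 50 d array. It was the dehydrogenase farthest below the control, 1.99-fold lower at 6 d, and the one with the smallest excess at 50 d, 0.42.

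Hydration, the second dehydrogenation and thiolysis follow. Hadhb, the thiolase subunit of the trifunctional protein, stood at 5.02 in the control, at 5.16, 5.24 and 5.26 on the early arrays, at 4.76, 4.96 and 4.76 on the later ones and at 5.90 on the 50 d array. Its partner subunit Hadha was also highest at 50 d, where it differed by 0.50. Echs1, the short-chain hydratase, differed most at 6 d, -0.46, and Hadh, the short-chain hydroxyacyl dehydrogenase, most at 50 d, 0.51. Acaa2, the mitochondrial thiolase, stayed within 0.25 of the control until 10 d and was at 0.59 at 50 d. Ech1 and Decr1, which prepare unsaturated fatty acids, differed most at 50 d, by 0.61 and 0.57. The probes of Decr1 differed in sign on the 1 d array, 0.36 and -0.36, and on the 2 d array, 0.44 and -0.20.

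Electrons from the acyl-CoA dehydrogenases pass through the flavoprotein Etfa and Etfb to Etfdh. Etfa and Etfdh differed most at 50 d, by 0.64 and 0.84, and Etfb at 4 d, -0.62. Etfdh stayed within 0.09 of the control from 4 d to 10 d, yet those arrays still lay below the early ones.

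At 50 d the peroxisomal enzymes Ehhadh and Acaa1a differed less from the control than any mitochondrial member. Ehhadh, the peroxisomal bifunctional enzyme, stood at 0.12 in the control, at -0.35, -0.39 and 0.68 on the early arrays, at -0.55, -1.05 and -0.46 on the later ones and at 0.44 on the 50 d array. It was highest at 2 d and 2.25-fold below the control at 6 d. Acaa1a, the peroxisomal thiolase, had the smallest range of the 37, 0.51, and was at 0.07 at 50 d. The 17 mitochondrial members other than Cpt1a had a median of 0.59 at 50 d, with values from 0.39 to 1.03.

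Ppara, the receptor itself, had its largest difference at 4 d, -0.42, on its brightest probe, which was at 0.21 at 50 d. The other probes shown above gave 1.23 and 1.15 at 50 d, so the size of the 50 d difference depends on the probe.

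The uncoupling proteins, carriers of the inner mitochondrial membrane, did not follow the oxidation members. Ucp2 stood at 2.71 in the control, at 2.37, 2.00 and 2.12 on the early arrays, at 2.75, 1.76 and 2.06 on the later ones and at 1.31 on the 50 d array. The brighter probe of Ucp3 stood at 2.97 in the control, at 2.37, 2.17 and 2.24 on the early arrays, at 2.82, 2.24 and 2.43 on the later ones and at 1.68 on the 50 d array. On these probes both were near the control at 4 d, where most members were low, and lowest at 50 d, 2.64-fold and 2.45-fold below the control. The dimmer Ucp3 probe, the second sequence shown above, gave 0.66 at 50 d and -0.55 at 4 d. The direction for Ucp3 therefore rests on which probe is read. The probes of Ucp2 and Ucp3 shared no run longer than 6 bases on either strand.

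**Figure D4:**
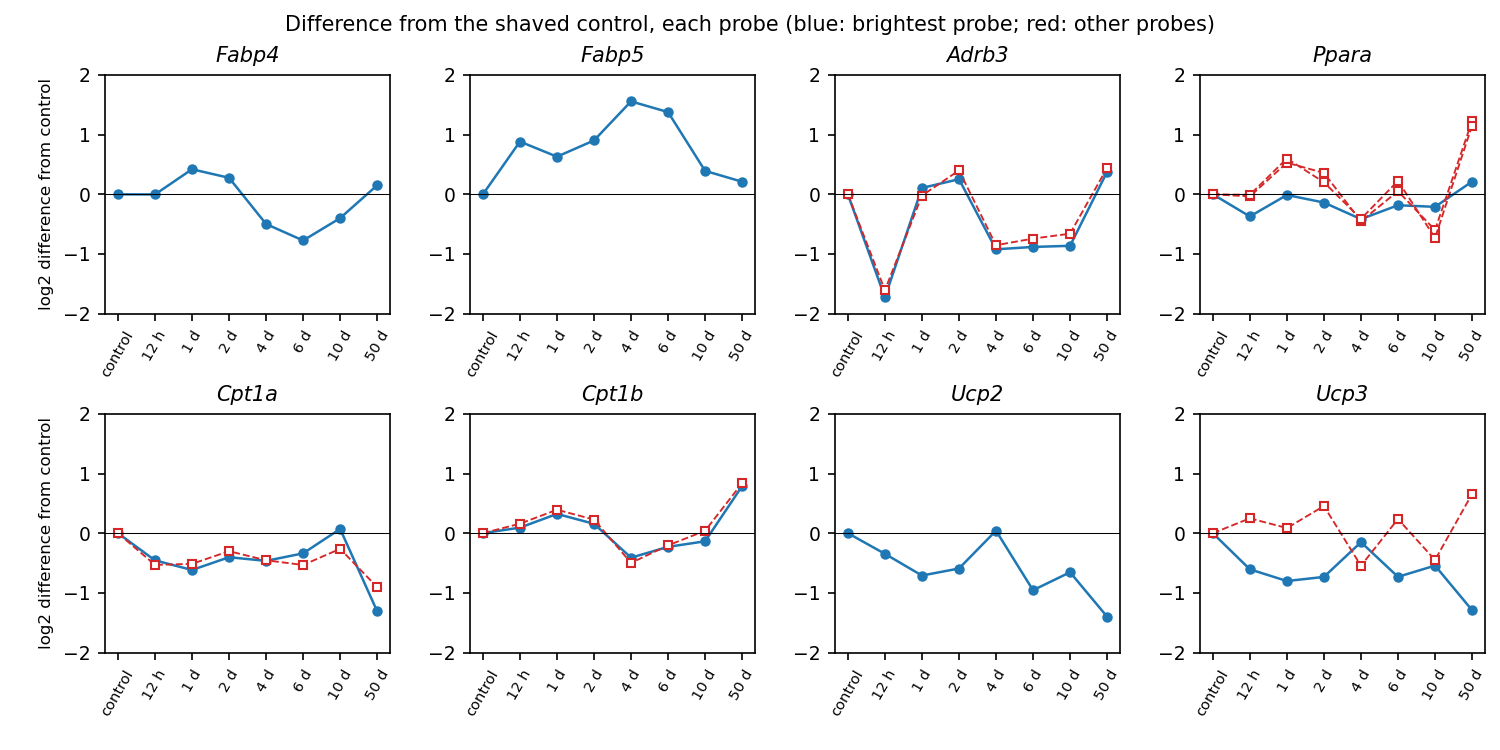
Log2 difference from the shaved control (vertical axis) on the 8 arrays (horizontal axis) for 8 members; blue circles are the brightest probe and red squares the other probes. The probes agree in direction at 50 d for Adrb3, Cpt1a and Cpt1b, and those of Ucp3 part at 50 d (-1.29 and 0.66).

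Further genes of each step were listed alongside the members. At 2 d 12 of 18 other uptake genes, 14 of 18 other lipolysis genes and 21 of 33 other oxidation genes were above the control; at 6 d 14, 16 and 27 were below it. Among all genes measured, 15272 of 28776 were above the control at 2 d and 17577 of 29342 below it at 6 d. The later arrays lay below all early ones for 9, 9 and 17 of the other uptake, lipolysis and oxidation genes, against the 13.7% given above. Pdk4, the kinase that holds back glucose oxidation, stood at 4.06 in the control and between 5.21 and 6.48 on all 7 plucked arrays, with no overlap. Slc27a2, a transport protein with acyl-CoA synthetase activity, was 7.46-fold above the control at 50 d and below it at all other times. Pnpla3, a relative of Pnpla2, was 4.02-fold higher at 50 d. Slc27a6, dim in the control (not well above background), was at least 7.82-fold higher at 4 d and at least 10.9-fold higher at 6 d. Fabp7 was likewise at least 3.96-fold and at least 5.76-fold higher at these times. Gm6484 (Angptl8), an inhibitor of lipoprotein lipase, was at 1.19 at 50 d. Among genes that restrain or act beside the lipases, Adora1, the adenosine receptor, was at -1.64 at 6 d and Lipa, the lysosomal lipase, at -1.37 at 4 d.

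Marker genes of other cell types moved on the same arrays. All 15 adipocyte genes were well above background on every array; their summed level was 1144 in the control, highest on the 2 d array (1403), lowest on the 6 d array (685.8) and 1371 at 50 d. The later arrays lay below the early ones for 10 of 15, against 13.7% of all genes measured. Among them Tshr and Thrsp were at 1.54 and 1.30 on the 50 d array, Tusc5 at -1.51 on the 10 d array and Cidec at -1.14 on the 6 d array. The 12 endothelial genes had a summed level of 63.3 to 77.1 on the early arrays and 38.2 to 45.0 on the later ones. For 11 of 12 the later arrays lay below the early ones, against the same 13.7%, and for 0 of 17 macrophage genes. Cldn5, an endothelial junction gene, differed by 1.66 at 2 d. How far the number of fat or endothelial cells in each sample set the members' values was not tested.

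At 50 d genes of muscle, brown fat and respiration were high together. All 18 skeletal muscle genes were above the control, with a median of 0.90 and a summed level of 4624 against 2628 to 3605 on the other arrays. Myh7, a slow myosin heavy chain, was at 1.34, Actn3 at 1.27 and Mb, myoglobin, at 1.24; Myh7 also differed by -3.26 at 4 d and 1.81 at 1 d. All 10 brown fat genes were above it, with a median of 1.05. Ucp1, the uncoupling protein of brown fat, stood at -3.35 in the control and 5.08 at 50 d, and Cidea, shared with sebaceous glands, was at 3.65. The 26 genes of mitochondrial respiration had a median of 0.78 at 50 d, with 26 above the control. Their median was -0.04 at 4 d, -0.01 at 6 d and -0.19 at 10 d, where all 26 were below the control. The later arrays lay below all early ones for 13 of these 26, against 13.7% of all genes measured. The same held for 11 of the 18 muscle genes and 2 of the 9 brown fat genes measured. Fat, muscle and brown fat markers thus moved with the oxidation members at 50 d, and their part in those values was not tested.

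The 17 macrophage genes were mostly below the control at all times, with a median of -1.61 at 4 d and -1.22 at 50 d, and a summed level of 496.8 in the control against 192.4 to 413.5 on the plucked arrays. Siglec1 was at -3.22 at 2 d. Ucp2 was at 0.04 at 4 d and at -1.40 at 50 d, its lowest array. The part of macrophages in the Ucp2 values was not tested. The 20 hair follicle genes had medians of 5.44, 5.70 and 5.24 on the 3 later arrays, and a summed level of 9.44 in the control, 695.9 at 4 d and 782.3 at 6 d. Their share in the lower member values on these arrays was not tested. The 12 fibroblast genes had medians between -0.65 and -0.17, and the 13 sebaceous gland genes a median of 0.95 at 2 d and -0.75 at 10 d.

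For 10 of 16 circadian clock genes the control was the lowest or the highest of the 8 arrays, against 20.2% of the genes well above background on all of them. Of the members this held for 2 of 37. The clock genes were chosen after their values were seen, so their count cannot be read against either share. Npas2, Per1, Cry1, Cry2, Nr1d1 and Bhlhe41 did not set the control apart. Arntl, a core activator, stood at -0.95 in the control and between 1.28 and 2.46 on the others, and Dbp, an output gene, at 5.45 against 0.81 to 3.46. The labels give no time of day. Sampling hour and plucking cannot be told apart in a difference from the control. Clock genes also differed among the plucked arrays, with list medians of -0.10 at 1 d and -1.02 at 4 d, and their part in the members' early and later values was not tested.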

How the data were processed

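RNA of 8 samples was labelled with Cy3 and hybridised to 1-colour Agilent arrays on 1 slide. Per the file headers, the authors' deposited intensity values are Feature Extraction 10.5 processed signals, with background subtracted; the probe positions are on mm9. Normalization between arrays is not given in the sources used here.

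Control spots were not used, nor were outlier spots, which removed 13 of 55681 probes. Spots of a probe were averaged as log2 values, the 75th percentile of the array was subtracted, and the brightest probe stood for a gene; 12 members have more than 1 probe. A gene was counted at 2-fold or more and well above background on the brighter array; a fold against a dim array is a bound. With 1 array per group no test was run. The counting steps were run on simulated data with shifts larger than any difference of the members. Whether they recover shifts of the members' size was not tested.

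The members and lists were chosen with earlier results of these data known. All members are named; those of widest range are given on every array, and other genes by size of difference, not all of them printed. Arntl, Dbp and the other clock genes were chosen after their values were seen. Names follow the array design. Tools were Python 3.11.15, numpy 2.4.6, pandas 2.3.3, and limma 3.58.1 in R 4.3.3 for the normexp alternative. Precision is limited by the number of arrays.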

Additional observations from a re-analysis of the deposited data

How the results depend on the processing

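Under quantile normalization, other centring, normexp background correction and the mean over probes, the 259 single differences of the members moved by more than the technical spread in 3, 0, 0 and 27 cases. The 27 could come only from the 12 members with more than 1 probe, because for the others the mean is the single probe. The median of the uptake members at 50 d turned to -0.12 with quantile normalization, so its sign is not settled. Taking the mean of the members gave -0.24 for uptake at 4 d, -0.21 for uptake at 10 d and -0.57 for lipolysis at 10 d; the mean over probes gave -0.57 for lipolysis at 10 d. With the mean over probes 8 of the 259 changed sign, again only among those 12 members, the largest of them 0.36 in size. At 1.5-fold, 23 differences were higher and 42 lower, or 8.88% and 16.2% of the 259, against 8.84% and 9.98% of the same values over all genes; at 2-fold they were 5 and 8. With a gap of at least 0.3 between the windows, 2 lipolysis, 3 oxidation and 9 of all members remained of 5, 17 and 26, against 2.27% of all genes. Leaving out each early or later array in turn, chosen after seeing the data, gave 26 to 31 members below, against 15.7% to 26.5% of all genes, and 0 to 1 above, against 7.08% to 13.7%. Centring on the median of the well-measured probes gave 1 member above, against 5.13% of all genes. No paired analysis was possible because each group has 1 array. Every member was well above background on all arrays, and no group has a replicate.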
